A study of Mus musculus with 4 samples.

Results

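The transcription factors of urothelial basal identity and terminal differentiation were read in the newborn mouse ureter as a set of 9 genes, Trp63, Foxa1, Grhl1, Grhl2, Grhl3, Pparg, Elf3, Ehf and Klf5. The array held 20 probe sets, each a group of short probes read as 1 value, annotated to exactly 1 of these symbols, among 45101 probe sets in all, and no probe set paired a member with a second gene. All 9 genes had at least 1 probe set among the 27022 bright enough to be tested, whereas 6 of the 20 probe sets were not tested. At these genes' brightest probe sets every array read above the highest of 27 probe sets for bacterial transcripts, which served as the background level.

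The samples were 3 ureter arrays and 1 array of a whole mouse pool, all of strain FVB/N at postnatal day 1 (Theiler stage 27). The ureters were whole tubes from male SMGA/EGFP transgenic mice, the transgene being that of the gene Actg2 (SMGA, an actin of smooth muscle), and were not pooled. The pool was made from whole animals of both sexes without the transgene, so tissue, transgene, sex and pooling changed together in the only comparison the design allows. Separate animals are not stated for the 3 ureters, so p-values cover only the spread among these arrays, possibly technical, and the pool, with 1 array, was assumed to vary like the ureters.

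The urothelium is the stratified lining of the urinary tract, with basal, intermediate and superficial umbrella cells. Trp63 encodes p63, the master regulator of basal cells in stratified epithelia, and Foxa1 encodes a forkhead pioneer factor that opens chromatin in endodermal and urothelial cells. The grainyhead-like genes Grhl1, Grhl2 and Grhl3 encode factors of epithelial barriers and junctions, and Grhl3 is needed for umbrella cell differentiation in the mouse bladder. Pparg encodes a fatty acid-activated nuclear receptor that drives urothelial differentiation and is also the master regulator of fat cells. Elf3 and Ehf encode epithelium-specific ETS factors, and Klf5 encodes a Krüppel-like factor needed for urothelial maturation. None of the 9 is restricted to the urothelium: skin, gut, lung, liver or fat express several of them, and those tissues were in the pool.

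The start-site windows of the 2 members with the largest differences among those held in the RefSeq table (build GRCm38.p6) are shown because both genes stood above the pool in every ureter. Each window runs from 250 bases before the start of the gene to 50 after it, 5′ to 3′ on the gene's strand. The capitals mark matches, on both strands, to a forkhead motif (TGTTTAC), a grainyhead motif (AACCNGTT), a GC box of the kind Klf factors bind (CCGCCC) and an ETS motif (AGGAAG).
Foxa1, chr12:57546062-57546361, minus strand: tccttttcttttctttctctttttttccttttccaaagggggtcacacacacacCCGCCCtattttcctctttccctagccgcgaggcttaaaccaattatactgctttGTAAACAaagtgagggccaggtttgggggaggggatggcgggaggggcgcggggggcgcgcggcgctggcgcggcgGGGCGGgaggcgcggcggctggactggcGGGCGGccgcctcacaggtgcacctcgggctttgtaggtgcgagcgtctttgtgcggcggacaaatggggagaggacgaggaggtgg
Grhl3, chr4:135573583-135573882, minus strand: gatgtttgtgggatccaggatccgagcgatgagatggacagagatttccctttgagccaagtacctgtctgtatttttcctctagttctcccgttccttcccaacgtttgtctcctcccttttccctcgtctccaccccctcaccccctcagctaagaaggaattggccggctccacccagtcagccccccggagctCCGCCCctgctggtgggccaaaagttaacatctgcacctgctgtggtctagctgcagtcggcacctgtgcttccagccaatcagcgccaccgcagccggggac
The Foxa1 window held 1 match to the forkhead motif, written there as its reverse complement, and 3 to the GC box. The Grhl3 window held 1 GC box and no match to the other 3 motifs. Matches to different motifs did not overlap in either window. Of 32851 windows of this length in the table, 3.65% held the forkhead motif, 2.09% the grainyhead motif, 35.7% the GC box and 35.4% the ETS motif, so a GC box is common in such windows. A match describes the letters only.

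Foxa1 and Ehf were the members that rose. Foxa1 was 11.9-fold higher and Ehf 8.09-fold higher in ureters than in the pool at their brightest probe sets. Of the 9 genes, 2 were higher and 0 lower by limma's adjusted p (threshold 0.05), against 2.94% of 13721 tested genes called higher and 4.77% called lower. Over all tested probe sets 725 were higher and 942 lower (444 and 882 with the arrays scaled as deposited). By limma's unadjusted p, 3 of the 9 lay under 0.05, all of them higher, the third being Grhl3. The median difference of the 9 genes was 0.68 on the log2 scale, and that of all genes was 0.10. In 6 of the 9 all 3 ureters lay above the pool, as in 39.9% of all genes, and in 0 of the 9 did all 3 lie below it, as in 30.7% of all genes. In a bulk sample, fewer cells of a type and less RNA per cell cannot be told apart.

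**Figure D1:**
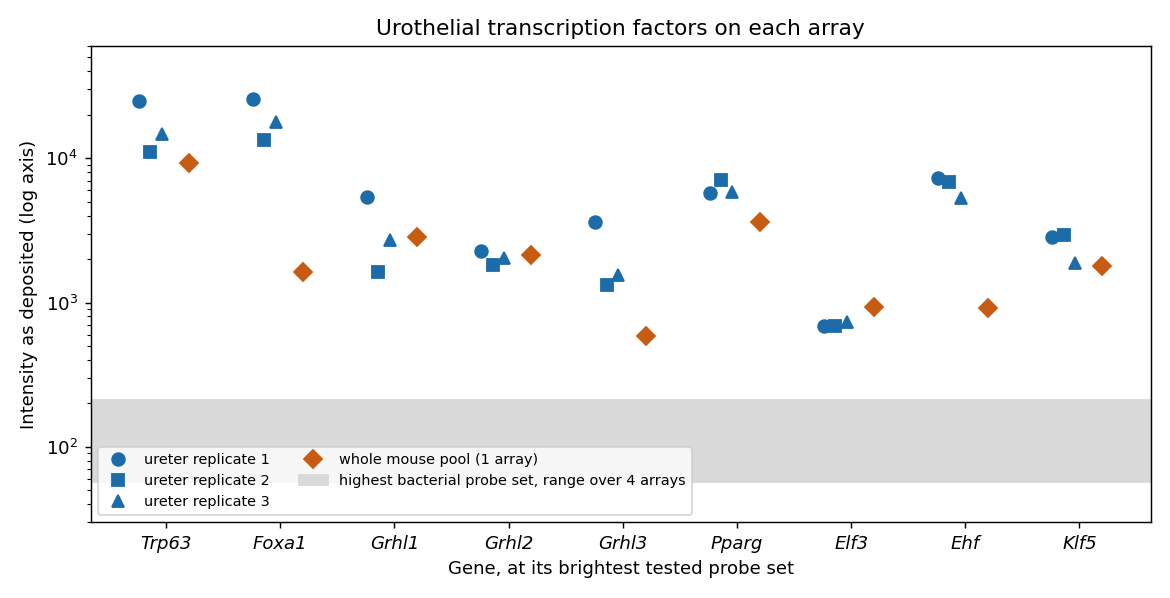
Intensity as deposited (vertical log axis) of each of the 9 genes at its brightest tested probe set, with 1 point per array: 3 ureter replicates in blue and the whole mouse pool in orange; levels of different genes are not comparable. The grey band spans the highest bacterial probe set of the 4 arrays, 57.2 to 212; Foxa1 and Ehf show the widest gap between the ureters and the pool.

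The basal regulator Trp63 was bright in both tissues at 1 probe set. Probe set 1418158_at of Trp63 read 25117, 11115 and 14739 in ureter replicates 1, 2 and 3, against 9262 in the whole mouse pool. All 3 ureters were above the pool, replicate 2 only slightly. The difference was 0.71 ± 0.46 (log2 ureter minus pool ± SE, n = 3 ureters and 1 pool) and did not pass (limma adjusted p = 0.404), with a 95% confidence interval of -0.40 to 1.82. The other 3 Trp63 probe sets were too dim to be tested. One of them, 1459581_at, read 69.1, 35.7 and 20.6 in the ureters, against 319 in the pool, so it ran the other way in all 3 ureters, and of the ureters only replicate 1 was above its array's background level. Thus the Trp63 probe sets do not give 1 direction.

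Genes known to depend on p63 in basal cells of stratified epithelia were lower or did not pass, while Trp63 itself did not pass. Of 15 tested, limma called 0 higher and 4 lower, and 11 did not pass (1 higher and 6 lower at an unadjusted p under 0.05), with a median of -0.19. In 4 of the 15 all 3 ureters lay above the pool, as in 39.9% of all genes. In 7 all 3 lay below it, as in 30.7% of all genes. The lower genes were Krt14 (-3.68), Krt15 (-5.07), Krt17 (at least 17.2-fold lower), which encode keratins of basal cells, and Pkp1 (-4.08), which encodes plakophilin 1 of desmosomes; Krt14 was chosen after its value was seen. All are also strongly expressed in epidermis. Of 13 tested epidermal markers 11 were called lower in the ureters, against 4.77% of all tested genes. Krt10, a keratin gene of the upper epidermis, was among them (-6.08). The marker Ivl, chosen after its value was seen, lay above the pool in all 3 ureters (0.75, adjusted p = 0.206). The summed intensity of the epidermal markers was 10071, 10501 and 10371 in the ureters, against 255960 in the pool. Most of the sum in each ureter was Ivl and Sbsn, the latter chosen after its values were seen, so it does not describe the other epidermal markers. In all 3 ureters 6 of the 13 were at or below background. Krt17 was also at or below background in all 3 ureters. Those 6 and Krt17 passed the filter on brightness only through the pool, so their calls are no support for a direction. The part of skin in the pool's values for Trp63 and its targets was not tested. Krt5, the partner keratin of Krt14, had a difference of -1.74 that missed the threshold (adjusted p = 0.0635), and the integrin gene Itga6 of the basement membrane contact, chosen after its value was seen, differed by 0.56 (adjusted p = 0.271). The values closest to 0 were those of Dst (0.04), which encodes the hemidesmosome linker dystonin, and Bnc1 (-0.06), a basonuclin gene of basal cells.

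Foxa1 had the largest difference of the 9 genes. Its single probe set, 1418496_at, read 25621, 13384 and 17924 in the ureter replicates, against 1636 in the pool. The lowest ureter was still far above the pool, and replicate 1 was the brightest. The difference was 3.57 ± 0.41 (95% confidence interval 2.59 to 4.56, limma adjusted p = 0.0122), higher in 3 of 3 ureters, and 99.7% of tested genes had a difference no larger. Without ureter replicate 3 the difference was 3.60 and the adjusted p 0.0581, a setting in which calls over all probe sets also fell to 48 higher and 269 lower.

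The sister genes of Foxa1 read below the pool in all 3 ureters, and only Foxa3 passed. Foxa3, a liver and gut forkhead factor, read 26.9, 65.5 and 93.0 in the ureters, against 2320 in the pool, and was at least 15.9-fold lower (adjusted p = 0.0218). Foxa2, which acts with Foxa1 in lung, liver and gut, read 53.8, 114 and 8.67 in the ureters, against 553 in the pool, at or below background in all 3 ureters, and did not pass (adjusted p = 0.209). The ureters were therefore bright for Foxa1 and at background for both relatives. Foxa2 and Foxa3 passed the filter on brightness only through the pool, so the call of Foxa3 is no support for a direction. Liver markers, which report a tissue that expresses all 3, were lower in 5 of 7, the albumin gene Alb among them (-7.22). Gut and lung epithelial markers were lower in 9 of 11, and of all tested genes 4.77% were called lower. Of the tested markers, 3 for liver and 3 for gut and lung were at or below background in all 3 ureters. Those markers passed the filter on brightness only through the pool, so their calls are no support for a direction.

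The 3 grainyhead-like genes did not move alike in these values. Grhl3 read 3637, 1314 and 1549 in the ureter replicates, against 586 in the pool. Each ureter exceeded the pool more than 2-fold, and replicate 1 stood above the other 2. The difference, 2.07 ± 0.62 (95% confidence interval 0.56 to 3.58), did not pass over all probe sets (adjusted p = 0.111, unadjusted p = 0.0150). Grhl1 read 5386, 1622 and 2720 in the ureters, against 2831 in the pool, so the pool lay inside the range of the ureters. Its difference was -0.04 ± 0.63 (adjusted p = 0.980), and the interval from -1.58 to 1.51 leaves room for changes of either sign.

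Grhl2, the main grainyhead factor of simple epithelia, had the narrowest interval of the 3. Probe set 1427046_at of Grhl2 read 2285, 1807 and 2027 in the ureters, against 2125 in the pool. The 4 arrays differed by little, and the interval of the difference (-0.03 ± 0.36) ran from -0.92 to 0.85. Its 2 dimmer tested probe sets gave -0.36 and -0.80 (adjusted p = 0.711 and 0.605), with the ureters below the pool in all 3 replicates, and the remaining one was at or below background on every array. Differences between the 3 genes themselves were not tested. The interval of Grhl3 overlaps those of Grhl1 and Grhl2.

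Junction and barrier genes of epithelia, many of them known targets of grainyhead factors, had a median of 0.57, with 2 higher, 0 lower and 17 not passed of 19 tested by limma (5 higher and 2 lower at an unadjusted p under 0.05). The higher pair were Marveld3 (2.46 ± 0.46, adjusted p = 0.0351), which encodes a tight junction protein, and Cldn4 (1.97 ± 0.39, adjusted p = 0.0425), which encodes a claudin of tight epithelia. Epcam, a surface protein of most epithelia, read 28604, 22368 and 20230 in the ureters, against 29899 in the pool (-0.28, adjusted p = 0.576). Cdh1, which encodes E-cadherin, read 24969, 12875 and 16442, against 8277 in the pool (1.00, adjusted p = 0.192). Neither of these pan-epithelial genes passed. Ocln (0.01) and Cldn7 (0.04) had the smallest differences.

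Pparg varied little among ureters. It read 5738, 7097 and 5866 in the ureter replicates, against 3617 in the pool, at its single probe set. All 3 ureters were above the pool and close to each other. The difference was 0.68 ± 0.32 (95% confidence interval -0.09 to 1.45) and did not pass (adjusted p = 0.256). Its heterodimer partner gene Rxra differed by 0.40 (adjusted p = 0.549), and none of 10 tested partners and coregulators passed by limma (0 at an unadjusted p under 0.05); the smallest differences were those of the coactivator gene Ncoa1 (0.00) and the corepressor gene Nrip1 (-0.05).

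PPAR targets that fat also expresses were lower or did not pass, while Pparg itself did not pass. Of 14 tested, limma called 0 higher and 7 lower, against 2.94% and 4.77% of all tested genes (0 higher and 10 lower at an unadjusted p under 0.05). All 3 ureters lay below the pool in 14 of 14, as in 30.7% of all genes. In all 3 ureters 4 of the 14 were at or below background. Those 4 passed the filter on brightness only through the pool, so their calls are no support for a direction. Ucp1, the uncoupling protein gene of brown fat, was at least 272-fold lower, Adipoq, which encodes the fat hormone adiponectin, at least 88.1-fold lower, and Cidea, a lipid droplet gene of brown fat, also lower (-6.25). Fabp4, a fatty acid carrier gene of fat and endothelium, read 17677, 28467 and 34089 in the ureters, against 47678 in the pool (-0.77, adjusted p = 0.285). Fabp5 (-0.39) and Plin4 (-0.51) had the smallest differences. Among 6 tested fat markers 3 were lower. Ucp1, Adipoq and the resistin gene Retn, chosen after its values were seen, 3 of the 6, were at or below background in all 3 ureters. The summed intensity of the 6 was 18119, 28961 and 34642 in the ureters, against 116240 in the pool. Nearly all of the sum in each ureter was Fabp4, so it does not describe the other fat markers. How much of the pool's Pparg value came from fat was not tested.

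Of the 2 epithelium-specific ETS genes, Ehf rose and Elf3 did not pass. Ehf at probe set 1451375_at read 7319, 6831 and 5291 in the ureter replicates, against 909 in the pool. The ureters lay within 1.37-fold of each other on the normalised scale, and all were far above the pool. The difference was 3.02 ± 0.35 (95% confidence interval 2.16 to 3.87, adjusted p = 0.0130). A second probe set, 1419475_a_at, read 815, 1073 and 737 in the ureters, against 244 in the pool (2.38 ± 0.44, adjusted p = 0.0334). The third, 1419474_a_at, read 551, 952 and 707 in the ureters, against 83.4 in the pool, where it was below background, and was at least 5.71-fold higher (adjusted p = 0.0160).

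The third probe set was dim in the pool and passed the filter on brightness only through the ureters, where it was high, so its call is no support for that of the other 2. The remaining Ehf probe set was at or below background on every array. With Foxa1, 4 of 14 tested member probe sets were called higher and 0 lower, against 2.68% and 3.49% of all tested probe sets; because 1419474_a_at is among them nothing is read from this count. Without ureter replicate 3 none of the 4 passed: the adjusted p was 0.0549, 0.128 and 0.0848 for the 3 Ehf probe sets, with differences of 3.12, 2.41 and 3.52. The second Ehf probe set also did not pass with the arrays scaled as deposited (1.77, adjusted p = 0.108), without ureter replicate 1 (0.0565), with no filter on dim probe sets (0.0642) or with no intensity trend in the variance (0.0505).

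Elf3 read 688, 685 and 733 in the ureters, against 938 in the pool. The 3 ureters were nearly equal, and each lay below the pool in deposited intensity, while after quantile normalisation the pool lay inside their range. The difference was -0.09 ± 0.41 (95% confidence interval -1.09 to 0.91, adjusted p = 0.920). Of the other ETS genes tested, Elf1 (1.36, adjusted p = 0.0519), a widely expressed factor, and Elf5 (-2.06, adjusted p = 0.214), of mammary and placental epithelium, did not pass either; both were chosen after their values were seen.

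Klf5 stood slightly above the pool in each ureter. Probe set 1451021_a_at of Klf5 read 2836, 2942 and 1886 in the ureter replicates, against 1780 in the pool, replicate 3 being close to the pool. The difference was 0.56 ± 0.41 (95% confidence interval -0.45 to 1.57, adjusted p = 0.468). A dimmer probe set, 1451739_at, read 103, 503 and 114, against 368 in the pool (-0.18 ± 0.79, adjusted p = 0.918). Its interval from -2.10 to 1.73 leaves room for either sign, so the tested Klf5 probe sets fix no common sign. The remaining one, 1430255_at, was too dim to be tested and read 94.2, 85.6 and 59.1, against 67.2 in the pool. Including Foxa3, the relatives of the 9 genes in their families gave 0 higher, 1 lower and 18 not passed of 19 tested by limma (4 higher and 2 lower at an unadjusted p under 0.05), with a median of 0.22. Those with the smallest differences were Elf4 (-0.01) and Klf3 (0.22), and Tfcp2l1, a grainyhead-related factor of kidney collecting ducts, differed by -0.30 (adjusted p = 0.739).

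**Figure D2:**
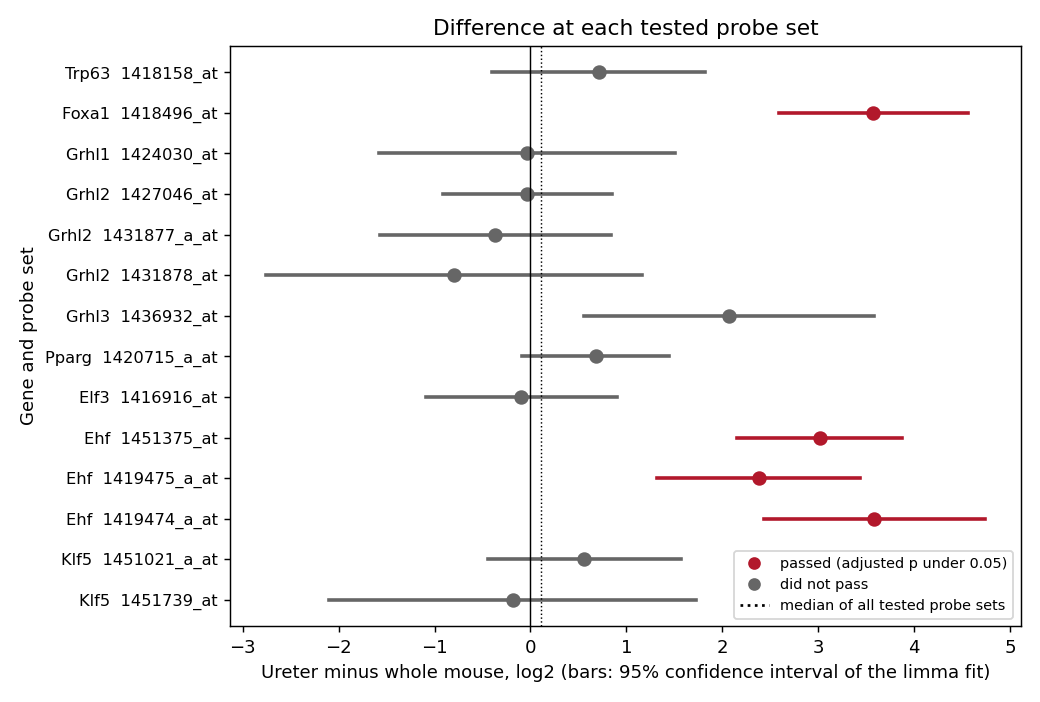
Ureter minus whole mouse pool on the log2 scale (horizontal axis) at each of the 14 tested probe sets of the 9 genes (rows), with the 95% confidence interval of the limma fit; red points passed the adjusted threshold. The intervals of Foxa1 (2.59 to 4.56), of the 3 Ehf probe sets and of Grhl3 (0.56 to 3.58), which did not pass, lie above 0, while the intervals of Trp63, Grhl1, Grhl2, Pparg, Elf3 and Klf5 include it.

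The genes that these factors are known to serve, those of the differentiated urothelium, were mostly higher. Of 17 tested, limma called 12 higher and 1 lower, against 2.94% and 4.77% of all tested genes, and 4 did not pass. At an unadjusted p under 0.05, 14 were higher and 2 lower, and the median was 2.57. Snx31, a sorting nexin gene of umbrella cells, was at least 70.6-fold higher, Sptssb, which encodes a subunit of the enzyme that begins sphingolipid synthesis, was higher by 6.19, and the uroplakin genes Upk3a and Upk1b were higher by 5.75 and 5.65. The gene that fell was Cyp2f2 (at least 34.9-fold lower), which encodes a cytochrome P450 best known from airway club cells. Snx31 and Psca, the latter chosen after its value was seen, passed the filter on brightness only through the ureters. Cyp2f2 passed it only through the pool, so the calls of Snx31, Psca and Cyp2f2 are no support for a direction. The smallest differences were those of the uroplakin gene Upk2 (0.95) and the keratin gene Krt8 (1.06), of which Krt8 passed. The differences of Foxa1 and Ehf were smaller than those of Upk1b and Upk3a in these values, and the gaps between them were not tested.

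Other regulators of the urothelium and its signalling gave 3 higher, 1 lower and 18 not passed of 22 tested by limma, with a median of 0.10. Over all tested genes 2.94% were called higher and 4.77% lower. At an unadjusted p under 0.05, 5 of the 22 were higher and 4 lower. Gata3, a zinc finger factor of urothelium, read 11606, 9348 and 8462 in the ureters, against 2363 in the pool (2.01 ± 0.30, adjusted p = 0.0210). Tbx3, a T-box factor of the ureteric mesenchyme, was higher by 2.12, and Shh, the signal that urothelium sends to the mesenchyme, chosen after its value was seen, by 1.69. Sox2, a stem cell and foregut factor, was at least 18.0-fold lower (adjusted p = 0.0156), and all 3 ureters were at background. It passed the filter on brightness only through the pool, so its call is no support for a direction. Hes1 (0.01) and Notch1 (-0.04), of the Notch pathway, had the smallest differences.

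**Figure D3:**
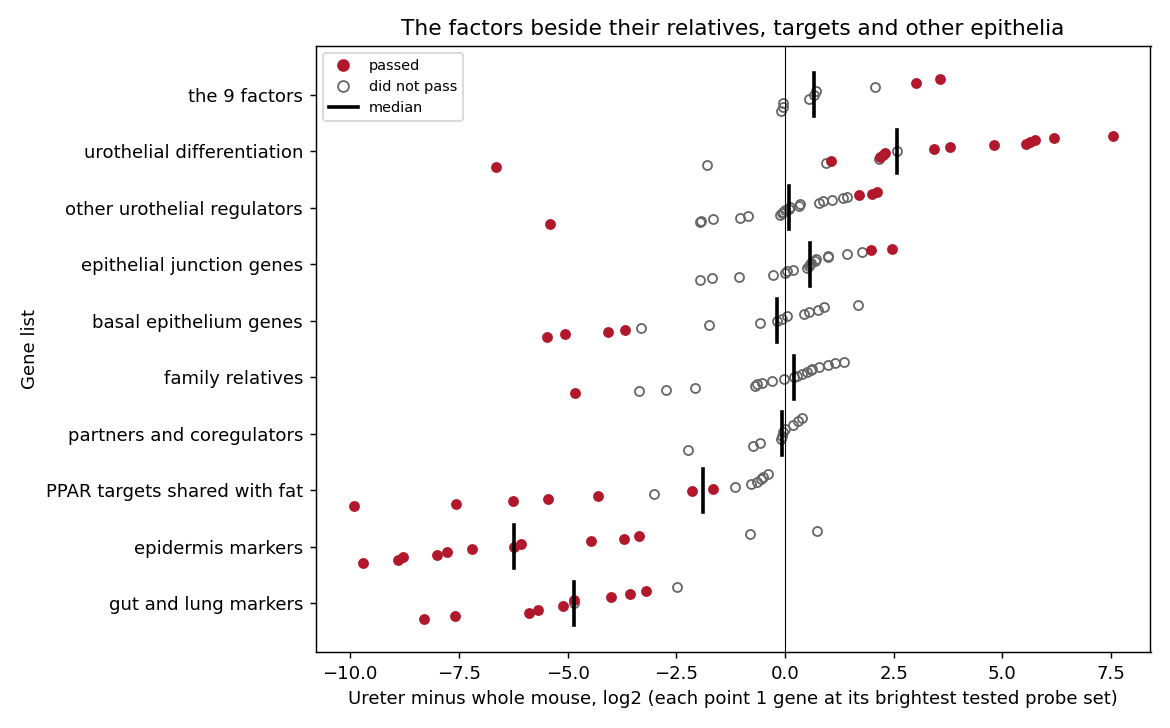
Ureter minus whole mouse pool on the log2 scale (horizontal axis) for each tested gene of 10 gene lists (rows), 1 point per gene at its brightest probe set, filled red where it passed, with a black bar at the list's median. The 9 factors have a median of 0.68, between urothelial differentiation genes (2.57) and basal epithelium genes (-0.19); genes at background in 1 group are plotted at their fitted value.

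Within the ureters, the spread of the factors between samples lay on both sides of that of the median gene. The standard deviation over the 3 ureters was 0.83 for Grhl1, 0.76 for Grhl3, 0.62 for Trp63 and 0.50 for Foxa1 on the log2 scale, whereas the median over all genes was 0.32. Grhl1 spanned 3.13-fold between its highest and lowest ureter, Grhl3 2.67-fold, Trp63 2.30-fold and Foxa1 1.99-fold. By contrast, Elf3 (SD 0.16), Grhl2 (0.16), Pparg (0.22) and Ehf (0.26) varied less than the median gene, and Klf5 (0.36) was near it.

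The 4 most variable members, Grhl1, Grhl3, Trp63 and Foxa1, were all highest in replicate 1. Counting also members that varied little, Trp63, Foxa1, Grhl1, Grhl2, Grhl3 and Elf3, 6 of the 9, were highest in replicate 1 and lowest in replicate 2, an order that 26.3% of all genes showed; this order was looked for after the values were seen. Scaled as deposited 5 of the 9 showed it, Elf3 no longer among them (21.6% of all genes), and with median-centred arrays 8 of the 9 did (51.0% of all genes). Before normalisation the array medians ran the other way, 154, 259 and 187 in replicates 1, 2 and 3. So did the background levels, 57.2, 212 and 102, and the part of these array properties in the order was not tested. Pparg was highest in replicate 2 and lowest in replicate 1, while Ehf and Klf5 were highest in replicate 2 and lowest in replicate 3.

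Genes of epithelium and of neighbouring tissue also differed between the ureters. The same order was held by 12 of 19 epithelial junction genes, 10 of 17 urothelial differentiation genes and 8 of 15 basal epithelium genes, and their medians in replicate 1 lay 0.41, 0.36 and 0.41 above the mean of the 3 ureters. None of 9 smooth muscle genes held it, and their medians lay -0.095, 0.051 and 0.075 from that mean in replicates 1, 2 and 3. Their summed intensity was 136870, 192330 and 161910, against 68962 in the pool. Such sums are of intensities as deposited, before normalisation. The largest part was Acta2, chosen after its values were seen, at 16.20, 16.23 and 16.25 on the normalised log2 scale. Myh11, the smooth muscle myosin gene, read 23082, 35760 and 31858 in the ureters, against 3226 in the pool. Genes of kidney tubules summed to 1466, 22745 and 14430 in the ureters, against 11542 in the pool, and those of liver to 3491, 10543 and 8720, against 427380. The largest part of the liver sum was Ttr in replicate 1 and Afp in replicates 2 and 3, both chosen after their values were seen. Of the 7 tested liver genes 1, Ttr, was highest in replicate 1 and lowest in replicate 2 (3259, 1233 and 1998 in replicates 1, 2 and 3).

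The calcium-binding protein gene Calb1, chosen after its values were seen, read 267, 10981 and 8584 in the ureters, against 2359 in the pool, low in replicate 1 and above the pool in the other 2. Of 10 tested kidney genes none passed by limma (1 lower at an unadjusted p under 0.05), and 7 were above background in all 3 ureters; Aqp2, the water channel gene of collecting ducts, read 138, 561 and 402, against 266 in the pool. Not every kidney gene was lowest in replicate 1: Kap, chosen after its values were seen, read 550, 611 and 535 in the ureters, against 801 in the pool. The part of tissue makeup in the spread of the members, or in their differences from the pool, was not tested. The ratio of 3′ to 5′ actin probe sets, a measure of RNA and amplification quality, was 4.89, 2.88 and 3.56 in the ureters, against 3.27 in the pool, highest in replicate 1 and lowest in replicate 2. The same ratio for Gapdh ran the other way, with 16.6, 21.6 and 21.0 in the ureters, against 19.8 in the pool, and the part of RNA quality in the spread was not tested.

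**Figure D4:**
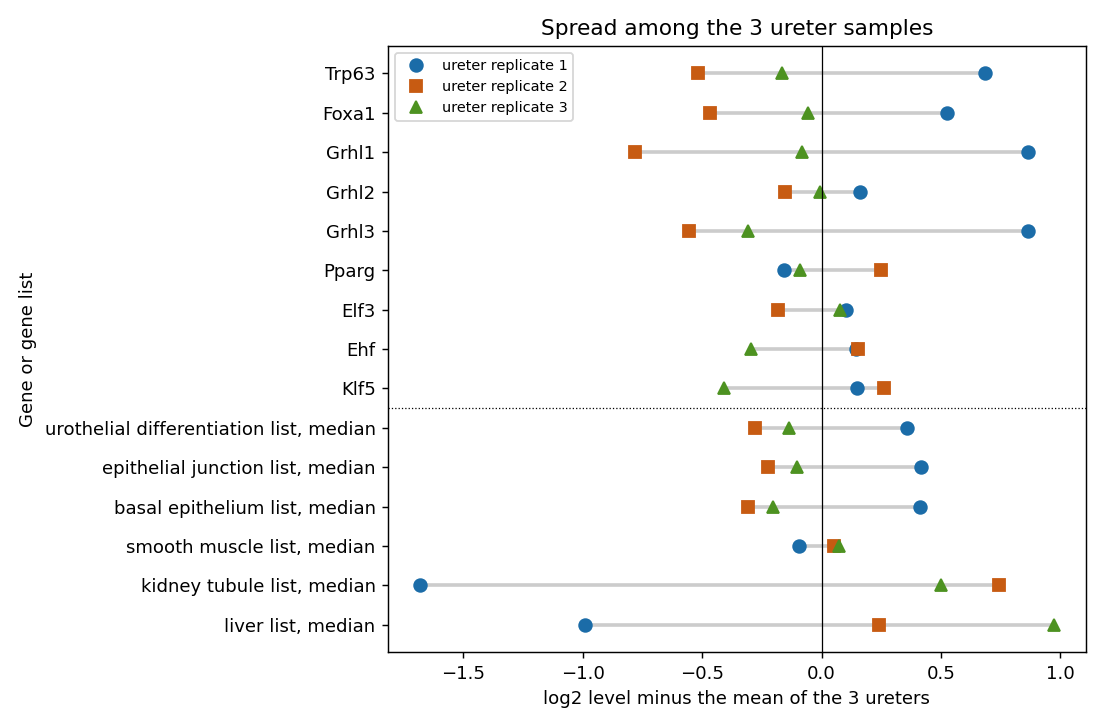
Level in each ureter replicate minus the mean of the 3 ureters, on the log2 scale (horizontal axis), for the 9 factors and for the medians of 6 gene lists (rows); each marker is 1 ureter sample. Trp63, Foxa1, Grhl1 and Grhl3 spread widely with replicate 1 on the right, as do the 3 epithelial lists, while the kidney tubule and liver lists have replicate 1 on the left.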

How the data were processed

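Transcripts were measured on Affymetrix MOE430 arrays after 2 rounds of amplification, per the labels' protocols. The authors deposited linear intensities, made with GCOS (no version given) per the submitters' processing notes; with the top and bottom 2% trimmed, their mean was 1500 on every array. The sources used here do not state how background was handled. Because array medians spanned 1.05 on the log2 scale, intensities were quantile normalised and log2 transformed after adding 12.23, which is the 10th percentile of the deposited values; such folds understate changes of dim probe sets. After 64 controls and the dimmest 40% were left out, limma (3.58.1, R 4.3.3; lmFit, eBayes with intensity trend, two-sided, Benjamini-Hochberg) was fitted over 27022 probe sets with 2 residual degrees of freedom, and was tested on simulated data. A gene is represented by its brightest tested probe set. "At least" folds set a group at background on all its arrays to the highest bacterial probe set of each array. Listed genes at background in 1 group passed the filter on brightness only through the other, so their calls are no support for a direction. Counts over the lists stand against 2.94% of all tested genes called higher and 4.77% called lower. The number of arrays limits precision.

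Members and gene lists were chosen with earlier results of these data known. Named genes are the 9 members, up to 3 of each list with the largest called change and 2 with the smallest, and a short preset group; others are said to be chosen afterwards. Symbols come from the platform annotation, and all 9 gene identifiers matched RefSeq.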

Additional observations from a re-analysis of the deposited data

How the results depend on the processing

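Foxa1 and Ehf stayed higher than the pool in all 11 alternatives run on each, with differences of 3.27 to 4.20 and 2.80 to 3.53, and passed in 10 of the 11, the exception being the omission of ureter replicate 3. Trp63, Grhl3, Pparg and Klf5 kept a positive sign and never passed. The sign of Grhl1 (0.023 as deposited, 0.75 with median-centred arrays, -0.45 to 0.35 leaving out 1 ureter), of Grhl2 (0.66 median-centred, -0.11 to 0.042 leaving out 1 ureter), of Elf3 (0.32 median-centred) and of the dimmer Klf5 probe set (-0.70 to 0.094 leaving out 1 ureter) turned in some settings, and none of these passed under any alternative. The median of all probe sets was 0.11, -0.13 as deposited and 0.59 with median-centred arrays; differences of that size depend on the scaling.

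Of member probe sets, 2 passed with the dimmest 60% left out, where 2 of the 3 Ehf probe sets were not tested, and 0 to 4 leaving out 1 ureter. Over all probe sets the higher calls numbered 444 as deposited, 401 without a filter, 269 without an intensity trend and 48 to 928 leaving out 1 ureter, and the lower calls 269 to 1207 leaving out 1 ureter. Of listed genes other than the members, 24 were higher and 39 lower, against 15 higher without a filter, 13 higher without a trend, and 10 to 26 higher and 24 to 46 lower leaving out 1 ureter. The cause was not tested. No paired analysis was possible because the pool has 1 array and the groups share only 1 replicate number. Signal over background limits 3 member probe sets, which were at or below it in both groups.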
